A study of Mus with 4 samples.

Results

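The suppressor of cytokine signalling (SOCS) family comprises 8 genes, *Socs1* to *Socs7* and *Cish*, which were chosen by their gene names in both lists of m6A peaks. They carried 13 of the 18400 peaks listed for interscapular brown adipose tissue (iBAT) of Wtapflox/flox mice and 16 of the 18693 peaks listed for Wtap-BKO mice. In m6A RNA immunoprecipitation sequencing (MeRIP-seq), fragmented poly(A)+ RNA is pulled down with an antibody against N6-methyladenosine, and a peak is a stretch of a transcript with more reads in the immunoprecipitate (IP) than its input would give. The series holds 4 sequenced samples, an IP and an input from each genotype, and each sample was pooled from 8 mice. All mice were of the strain C57BL/6, were 8 weeks old, ate normal chow and carried loxP sites on both *Wtap* alleles. Wtap-BKO mice also carried UCP1-iCre, which removes *Wtap*, a partner of the m6A methyltransferase METTL3, in cells that express *Ucp1*, the uncoupling protein of brown adipocytes. Other cells of the tissue keep *Wtap*, so a Wtap-BKO peak can come from them. The Wtapflox/flox mice were the controls. With 1 pool per genotype there were no replicates, so no difference between the genotypes could be tested, and every value below describes 1 pool.

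SOCS proteins are feedback inhibitors of cytokine signalling. Cytokine receptors activate Janus kinases, which phosphorylate STAT transcription factors, and STAT factors switch on SOCS genes. Through an SH2 domain, SOCS proteins bind phosphorylated tyrosines of receptors or kinases, and through the SOCS box they recruit elongins and Cul5 to have their targets ubiquitinated. SOCS1 and SOCS3 also restrain leptin, interferon and insulin signalling in metabolic tissues. In T cells, m6A on SOCS transcripts has been linked to their decay.

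Peaks were listed on 7 of the 8 genes in Wtapflox/flox mice and on all 8 in Wtap-BKO mice. *Socs1* was the only member with a peak in 1 list alone, that of Wtap-BKO mice. Over the 11431 genes with a peak in either list, 70.1% had peaks in both, 15.0% in Wtapflox/flox only and 14.9% in Wtap-BKO only. A peak of one list was called found when a peak of the other list lay on the same strand and had 1 or more exonic bases in common with it. Of the 13 Wtapflox/flox peaks of the family, 10 were found in the Wtap-BKO list (76.9%, 95% Wilson interval 49.7% to 91.8%, which covers counting error only), and 3, all on *Socs2*, were not. Of the whole Wtapflox/flox list, 32.2% of peaks were not found. By gene, 1 of the 7 members with a Wtapflox/flox peak had any that was not found, against 46.1% of the genes of that list. Of the 16 Wtap-BKO peaks, 12 were found in the Wtapflox/flox list (75.0%, interval 50.5% to 89.8%). The other 4 lay on *Socs1*, *Socs2*, *Socs4* and *Cish*, so that 4 of 8 members had such a peak. In the whole Wtap-BKO list the shares were 32.0% of peaks and 47.7% of genes. For peaks, the intervals of the family hold the shares of the whole lists.

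The strength of a peak is given below in 3 ways, all within its own list. The fold enrichment is the authors' ratio of IP over input. The log10 of the false discovery rate (FDR) is more negative for a stronger peak. The rank is the share of peaks in the same list with a weaker FDR. The lists were called separately and their fold enrichments share no scale, so the genotypes are compared by rank. The paper reported less m6A in Wtap-BKO iBAT, and a rank cannot show a change that all peaks of a list share. An equal or higher rank therefore does not mean an equal or higher m6A level. An FDR also depends on how many reads a transcript received, and the lists hold neither read numbers nor expression values. A peak that was not listed is therefore one that did not pass the authors' threshold, and fewer cells of a type, less transcript per cell and less m6A cannot be told apart. Coordinates are those of GRCm38, and the lists give no exon numbers or untranslated regions.

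*Cish* encodes CIS, which is induced by STAT5 and dampens signalling of growth hormone, prolactin and interleukin receptors. It spans 107296659 to 107302784 on the plus strand of chromosome 9 (ENSMUSG00000032578). In Wtapflox/flox mice it carried 1 peak of 900 bases, from 107300445 to 107301344, at a log10 FDR of -120 and a fold enrichment of 10.6. This was the strongest peak of the family by FDR, with a rank of 96.5%. In Wtap-BKO mice, 211 bases of the same stretch remained listed, from 107300895 to 107301105, at a log10 FDR of -7.88 and a fold enrichment of 2.02. The rank of this peak was 56.9%, and only 9.2% of the Wtap-BKO peaks had a lower fold enrichment. Thus 23.4% of the bases of the Wtapflox/flox peak were under a Wtap-BKO peak. A second Wtap-BKO peak of 121 bases, from 107297136 to 107297256, had its centre 537 bp from the 5′ end of the gene, where no Wtapflox/flox peak was listed. It had a high fold enrichment of 13.7 but a log10 FDR of -2.52, near the end of its list at a rank of 11.9%. A Wtapflox/flox peak on the opposite strand, assigned to the unnamed gene ENSMUSG00000090570, shared 256 bases with the *Cish* peak. The library kit is not described as keeping strand, so reads of these genes may not be separable there.

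*Socs7*, whose protein binds insulin receptor substrate and adaptor proteins, spans 97362292 to 97398542 on the plus strand of chromosome 11 (ENSMUSG00000038485). Its single Wtapflox/flox peak covered 330 bases from 97362700 to 97363029, with a fold enrichment of 8.02, a log10 FDR of -16.5 and a rank of 68.8%. Its single Wtap-BKO peak covered 180 bases from 97362880 to 97363059, with a fold enrichment of 5.12, a log10 FDR of -3.51 and a rank of 27.1%. The peaks shared 150 bases, which is 45.5% of the Wtapflox/flox and 83.3% of the Wtap-BKO peak. Their centres lay 572 and 678 bp from the 5′ end of a gene of 36251 bp. *Socs7* was thus the member whose peaks lay nearest to the gene start in relation to its length, at 1.6% and 1.9% of the span.

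*Socs4*, *Socs5* and *Socs6* encode members with long N-terminal regions. SOCS4 and SOCS5 have been linked to the epidermal growth factor receptor, and SOCS6 to receptor tyrosine kinases such as KIT. *Socs4* spans 47276920 to 47296102 on the plus strand of chromosome 14 (ENSMUSG00000048379). In Wtapflox/flox mice it had a peak of 659 bases, from 47289734 to 47290392, with a fold enrichment of 7.01, a log10 FDR of -19.9 and a rank of 73.1%. It was followed by a peak of 240 bases, from 47290601 to 47290840, at a rank of 58.3% and a fold enrichment of 5.53. In Wtap-BKO mice the first stretch held 2 separate peaks, from 47289674 to 47289854 and from 47290003 to 47290362. They covered 18.4% and 54.6% of the Wtapflox/flox peak, with fold enrichments of 2.68 and 3.37 and ranks of 31.4% and 44.2%. The second stretch held 1 peak of 120 bases, from 47290691 to 47290810, at a rank of 8.5%. A further Wtap-BKO peak of 91 bases lay 1809 bp from the 3′ end of the gene, from 47294248 to 47294338, where no Wtapflox/flox peak was listed, and its fold enrichment was 2.56. In all, *Socs4* kept a peak on both stretches, and each was lower in rank in Wtap-BKO mice.

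*Socs5* spans 87107278 to 87137647 on the plus strand of chromosome 17 (ENSMUSG00000037104). Its Wtapflox/flox peaks lay from 87133730 to 87134297 and from 87134506 to 87135343, with fold enrichments of 10.9 and 16.6 and ranks of 77.8% and 87.1%. Its Wtap-BKO peaks lay from 87133700 to 87134327 and from 87134536 to 87135522, with fold enrichments of 11.4 and 7.98 and ranks of 84.6% and 90.4%. Of the bases of the Wtapflox/flox peaks, 100% and 96.4% were under the Wtap-BKO peaks. *Socs5* thus had the most similar peaks of the family, with 83.6% of all its peak bases in both lists.

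*Socs6* spans 88865169 to 88894364 on the minus strand of chromosome 18 (ENSMUSG00000056153). In Wtapflox/flox mice it carried the longest peak of the family, 1287 bases from 88869096 to 88870382, with a fold enrichment of 20.3, a log10 FDR of -68.4 and a rank of 92.7%. In Wtap-BKO mice this stretch held 2 peaks of 540 bases each, from 88869036 to 88869575 and from 88869694 to 88870233. They had fold enrichments of 8.16 and 5.17, log10 FDRs of -42.6 and -7.61, and ranks of 91.5% and 55.9%. The one nearer the 3′ end was thus among the strongest of its list, and the one nearer the 5′ end was not. Upstream of them, a peak of 240 bases from 88870502 to 88870741 had the same borders in both lists, with ranks of 45.3% in Wtapflox/flox and 48.2% in Wtap-BKO mice. In the family, the long peaks of *Socs4* and *Socs6* were thus the 2 of 13 Wtapflox/flox peaks with more than 1 Wtap-BKO peak on them. Over all Wtapflox/flox peaks, 6.08% had 2 or more. The reverse, a Wtap-BKO peak over 2 or more Wtapflox/flox peaks, was found for 0 of 16 in the family and for 5.08% of the whole list.

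*Socs3*, whose protein inhibits signalling through gp130 and the leptin receptor, ranked higher in Wtap-BKO mice by the FDR of its strongest peak. It spans 117966079 to 117970336 on the minus strand of chromosome 11 (ENSMUSG00000053113) and had 2 peaks in each list. The peak nearer the 3′ end covered 121 bases in Wtapflox/flox mice, from 117967181 to 117967301, with a fold enrichment of 5.25, a log10 FDR of -2.64 and a rank of 12.1%. In Wtap-BKO mice it reached from 117967062 to 117967420, covering 359 bases, with a fold enrichment of 8.53, a log10 FDR of -9.14 and a rank of 61.3%. The other peak, from 117967628 to 117967837, had the same borders in both lists. Its fold enrichment was 19.5 in Wtapflox/flox mice, higher than that of 91.5% of the list, and 4.68 in Wtap-BKO mice, higher than that of 50.2%. Its ranks by FDR were 31.0% and 24.6%. The stronger peak of *Socs3* was therefore a different one in each genotype.

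*Socs1*, whose protein blocks Janus kinases downstream of interferon receptors, is the shortest gene of the family. It spans 10783808 to 10785536 on the minus strand of chromosome 16 (ENSMUSG00000038037). The single peak was listed in Wtap-BKO mice, from 10784548 to 10784817, with a fold enrichment of 4.3, a log10 FDR of -4.06 and a rank of 33.5%. No peak in Wtapflox/flox mice passed the authors' threshold on it, and no peak of another name lay inside its span on the same strand.

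*Socs2*, a regulator of growth hormone signalling, spans 95383903 to 95417321 on the minus strand of chromosome 10 (ENSMUSG00000020027). By FDR its peaks were weak, at ranks from 12.6% to 17.5%. In Wtapflox/flox mice 3 entries were listed, but those from 95412867 to 95413047 and from 95412869 to 95413049 share 179 bases and are nearly the same stretch. They had fold enrichments of 5.06 and 5.25. The remaining entry, from 95412508 to 95412658, stood at a log10 FDR of -2.71, a rank of 12.6%, although its fold enrichment of 13.5 was above that of 80.0% of the list. In Wtap-BKO mice the peak lay elsewhere, from 95411759 to 95411849, at a log10 FDR of -2.73 and a fold enrichment of 3.1. *Socs2* was the one member with peaks in both lists and no shared base. The map of the peaks shows each of these positions.

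**Figure D1:**
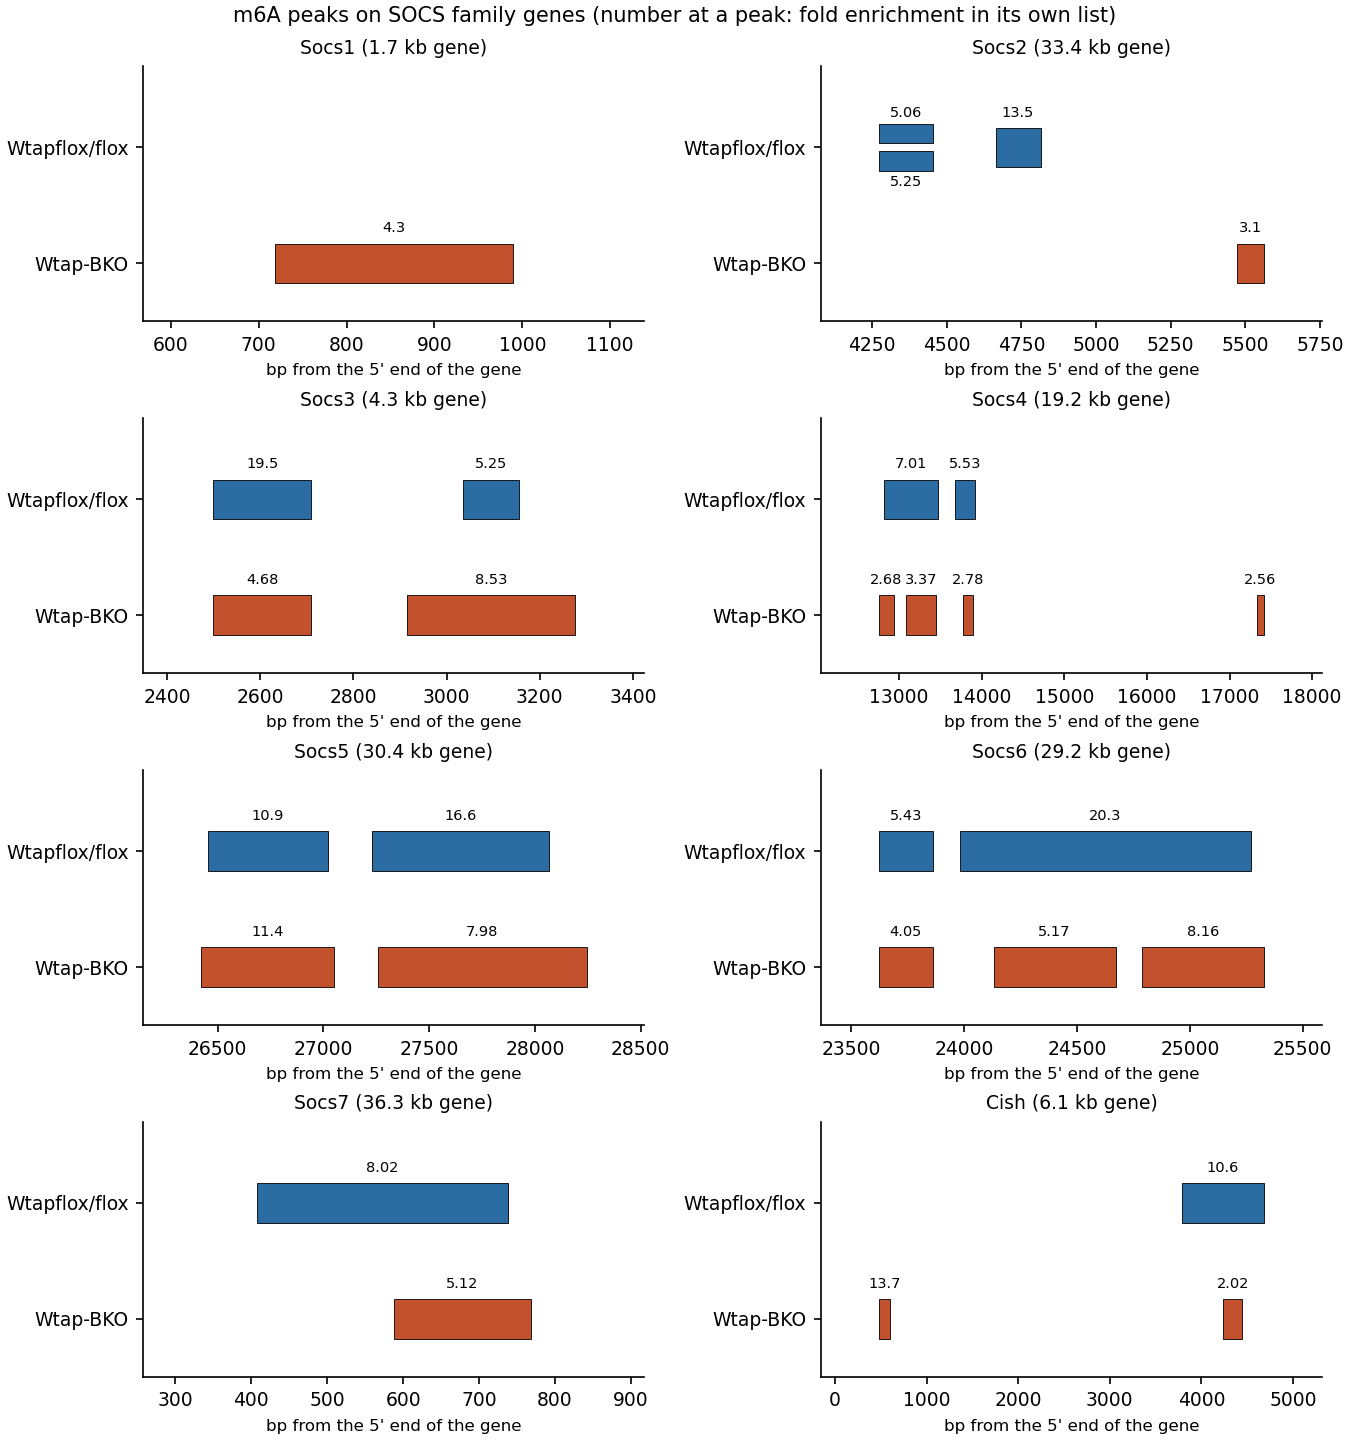
m6A peaks of the 8 SOCS family genes in Wtapflox/flox (blue) and Wtap-BKO (red) iBAT, 1 panel per gene. The horizontal axis is the distance in bp from the 5′ end of the gene and shows only the part with peaks, bars are peaks, and the number at each bar is its fold enrichment of IP over input in its own list. The 900-base *Cish* peak of Wtapflox/flox mice is 211 bases long in Wtap-BKO mice, the long *Socs4* and *Socs6* peaks are each over 2 Wtap-BKO peaks, and *Socs1* has a bar in Wtap-BKO mice only.

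Across the family, 5727 exonic bases were under a peak in Wtapflox/flox mice, 5129 in Wtap-BKO mice and 3929 in both. *Cish* had the most bases under a Wtapflox/flox peak alone, 689, and *Socs1* the most under a Wtap-BKO peak alone, 270. Among the 7 members with peaks in both lists, shared bases made up a median of 57.2% of all peak bases of the gene, with a range from 0% for *Socs2* to 83.6% for *Socs5*. Over the 8014 genes with peaks in both lists the median was 53.3%. All 29 family entries were single unspliced blocks, as were most peaks of both lists. In the whole lists, 2840 of 18400 Wtapflox/flox peaks and 3703 of 18693 Wtap-BKO peaks were split over 2 or more blocks.

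**Figure D2:**
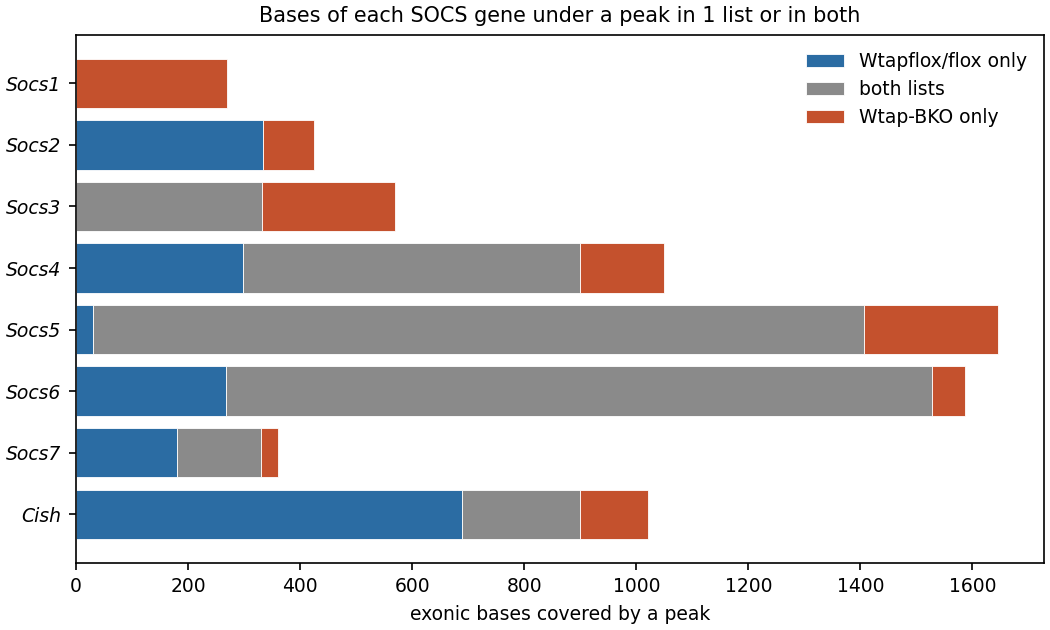
Exonic bases (horizontal axis) of each SOCS family gene that were under a peak in Wtapflox/flox mice only (blue), in both lists (grey) or in Wtap-BKO mice only (red). Most peak bases of *Socs5* and *Socs6* were in both lists, 689 bases of *Cish* were in the Wtapflox/flox list alone, and *Socs1* and *Socs2* had no shared base.

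By the rank of its strongest peak, each gene was then set against its own list in both genotypes. *Socs7* fell by 41.8 percentage points from Wtapflox/flox to Wtap-BKO mice, *Cish* by 39.6 and *Socs4* by 28.9. *Socs5* (-3.2 points for Wtapflox/flox minus Wtap-BKO), *Socs6* (1.3) and *Socs2* (1.4) stood at nearly the same rank, while *Socs3* stood 30.3 points higher in Wtap-BKO mice. A fall as large as that of *Socs7* was found for 5.1% of the 8014 genes with peaks in both lists, as large as that of *Cish* for 5.8%, and as large as that of *Socs4* for 10.9%. For *Socs3*, 91.2% of these genes had a difference of Wtapflox/flox minus Wtap-BKO at or above its -30.3 points, and the others rose by more. The rank was lower in Wtap-BKO mice for 5 of the 7 members with peaks in both lists, against 48.2% of all such genes, and the median difference was 1.4 points, against -0.4 over all. By the highest fold enrichment of each gene, 6 of the 7 ranked lower in Wtap-BKO mice, against 50.7% of all such genes. The exception was *Cish*, whose highest fold enrichment in Wtap-BKO mice was that of the peak near the 5′ end. These counts describe 7 genes in 1 pool per genotype.

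**Figure D3:**
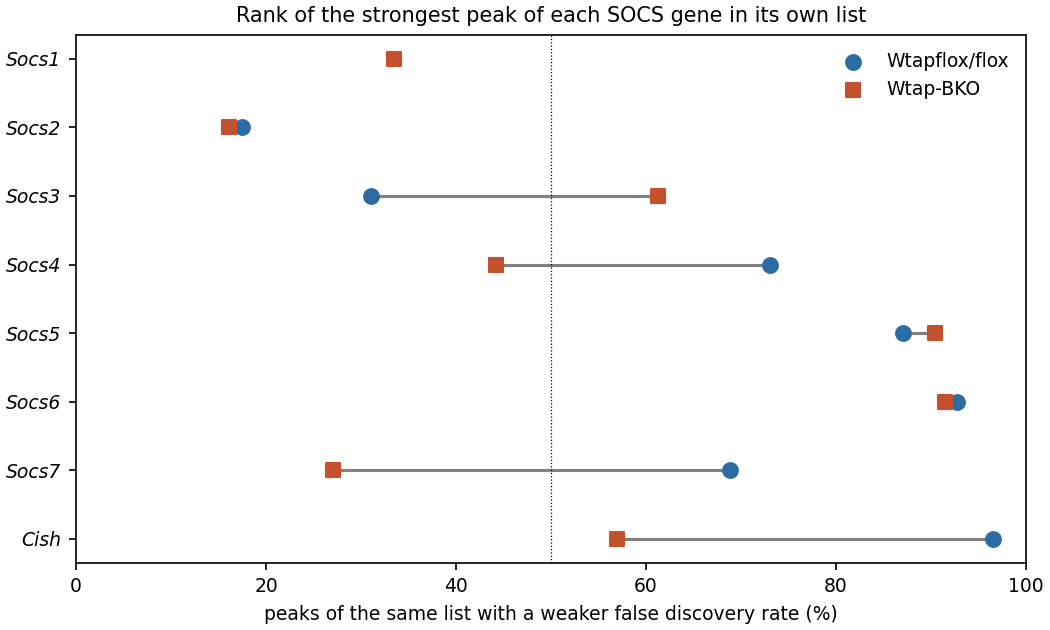
Rank of the strongest peak of each SOCS family gene, as the percentage of peaks in the same list with a weaker FDR (horizontal axis), in Wtapflox/flox (blue circles) and Wtap-BKO mice (red squares), with a dotted line at 50%. *Socs4*, *Socs7* and *Cish* are 28.9 to 41.8 points lower in Wtap-BKO mice, *Socs3* is 30.3 points higher, and *Socs2*, *Socs5* and *Socs6* differ by less than 4 points.

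The order of the members by rank also differed. In Wtapflox/flox mice *Cish* ranked first, followed by *Socs6*, *Socs5*, *Socs4*, *Socs7*, *Socs3* and *Socs2*. In Wtap-BKO mice *Socs6* and *Socs5* led, at 91.5% and 90.4%, followed by *Socs3*, *Cish*, *Socs4*, *Socs1*, *Socs7* and *Socs2*. Stricter limits on the FDR removed a larger share of Wtap-BKO than of Wtapflox/flox peaks, in the family as in the whole lists. Under 1e-05, 8 of the 13 Wtapflox/flox peaks remained, against 63.1% of that list, and 8 of the 16 Wtap-BKO peaks, against 58.4%. All of these 8 and 8 peaks were found among all peaks of the other list, at any listed FDR. Of all peaks under this limit, 20.4% of the Wtapflox/flox and 15.4% of the Wtap-BKO peaks were not. The family peaks under 1e-05 lay on the following members. There were 5 of 7 in Wtapflox/flox mice (74.7% of genes) and 5 of 8 in Wtap-BKO mice (69.5% of genes). *Cish*, *Socs4*, *Socs5* and *Socs6* passed in both, *Socs7* in Wtapflox/flox only and *Socs3* in Wtap-BKO only, which makes 4 of 6 members in both, against 64.8% of genes. Under 1e-10, 7 Wtapflox/flox peaks (43.1% of the list) and 3 Wtap-BKO peaks (36.2% of the list) remained. They lay on 5 members in Wtapflox/flox mice, *Cish*, *Socs4*, *Socs5*, *Socs6* and *Socs7*, and on *Socs5* and *Socs6* in Wtap-BKO mice, against 57.3% and 48.8% of genes.

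In position, 4 of the 13 Wtapflox/flox peaks and 6 of the 16 Wtap-BKO peaks of the family had their centre in the 3′-most 25% of the gene span, all on *Socs5* and *Socs6* except 1 Wtap-BKO peak on *Socs4*. Over all peaks inside their genes the shares were 60.5% and 57.6%. The 5′-most 25% held 4 of the 13 Wtapflox/flox and 3 of the 16 Wtap-BKO peaks, against 16.8% and 18.0% over all peaks inside their genes. These were the peaks of *Socs2* and *Socs7* in both lists and the *Cish* peak found in Wtap-BKO mice alone. The Wtapflox/flox count includes 3 *Socs2* entries, the doubled one among them. Positions were measured along the genome with introns included, so they do not give the place of a peak in the spliced transcript.

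Genes of the pathways in which SOCS proteins act were then examined for peaks, namely kinases, STAT factors, receptors and insulin receptor substrates, other negative regulators, Cul5 ligase subunits and other SOCS box genes. Of these 79 genes, 49 had a peak in both lists, 5 in Wtapflox/flox only, 5 in Wtap-BKO only and 20 in neither, 13 of the latter being other SOCS box genes. Over all genes with a peak in either list, 70.1% had peaks in both, 15.0% in Wtapflox/flox only and 14.9% in Wtap-BKO only. These shares also stand beside the counts of each list below. Of the 4 Janus kinases, *Jak1* and *Jak2* had peaks in both lists, *Tyk2* in Wtapflox/flox only, and *Jak3* in neither. The strongest *Jak1* peak had ranks of 96.4% in Wtapflox/flox and 95.8% in Wtap-BKO mice. That of *Jak2* stood at 56.9% in Wtapflox/flox and 83.6% in Wtap-BKO mice. Among the STAT genes, *Stat2*, *Stat5a* and *Stat6* had peaks in both lists, *Stat5b* in Wtap-BKO only, and *Stat3* and *Stat4* in neither. The ranks were 90.2% and 96.3% for *Stat2* and 79.6% and 83.8% for *Stat6*, in Wtapflox/flox and Wtap-BKO mice. *Stat5a*, which with *Stat5b* drives *Cish*, stood at 34.1% in both lists, but its Wtapflox/flox and Wtap-BKO peaks shared no base.

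Of the 19 cytokine receptor genes, 16 had peaks in both lists and 3 in neither, *Lepr*, the leptin receptor, among them. In 2 of these 16 the strongest peak ranked lower in Wtap-BKO mice, against 48.2% of all genes with peaks in both lists. This difference was not tested, and 1 of the receptor genes is also counted among the lymphocyte markers below. *Il6st*, which encodes gp130, stood at 97.5% in Wtapflox/flox and 98.4% in Wtap-BKO mice, and *Ghr*, the growth hormone receptor, at 97.9% and 98.4%. The insulin branch, which SOCS proteins restrain through the receptor and its substrates, had peaks in both lists on all 4 genes, and the strongest peak ranked lower in Wtap-BKO mice for 3 of them, beside the same 48.2% of all genes. *Insr*, the insulin receptor, went from 94.6% to 77.8%, *Irs1* from 91.0% to 77.9%, and *Irs2* from 98.5% to 95.7%, while *Igf1r*, the receptor of insulin-like growth factor, went from 70.2% to 74.3%. Among 10 other negative regulators, phosphatases and PIAS proteins among them, 8 had peaks in both lists and 1 in Wtap-BKO only. Beside these counts stand 70.1% and 14.9% of all genes with a peak in either list.

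Of the 7 genes of the Cul5 ligase, which SOCS boxes recruit, 5 had a peak in both lists. The share over all genes with a peak in either list was 70.1%. *Cul5*, the scaffold, stood at 39.3% in Wtapflox/flox and 15.2% in Wtap-BKO mice, and *Elob*, elongin B, at 77.4% and 88.6%. *Rnf7*, the RING subunit, had a peak in Wtapflox/flox only, at a rank of 42.9%, and *Eloc*, elongin C, in Wtap-BKO only, at 5.6%. Among 28 other SOCS box genes, 10 had peaks in both lists, 3 in Wtapflox/flox only (*Asb1*, *Neurl2* and *Rab40c*) and 2 in Wtap-BKO only (*Asb2* and *Wsb1*). Over all genes with a peak in either list, the shares were 70.1%, 15.0% and 14.9%. The remaining 13 of the 28 carried no peak, whereas each of the 8 SOCS family genes carried at least 1. This difference was not tested, since a peak needs an expressed transcript and expression is unknown.

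**Figure D4:**
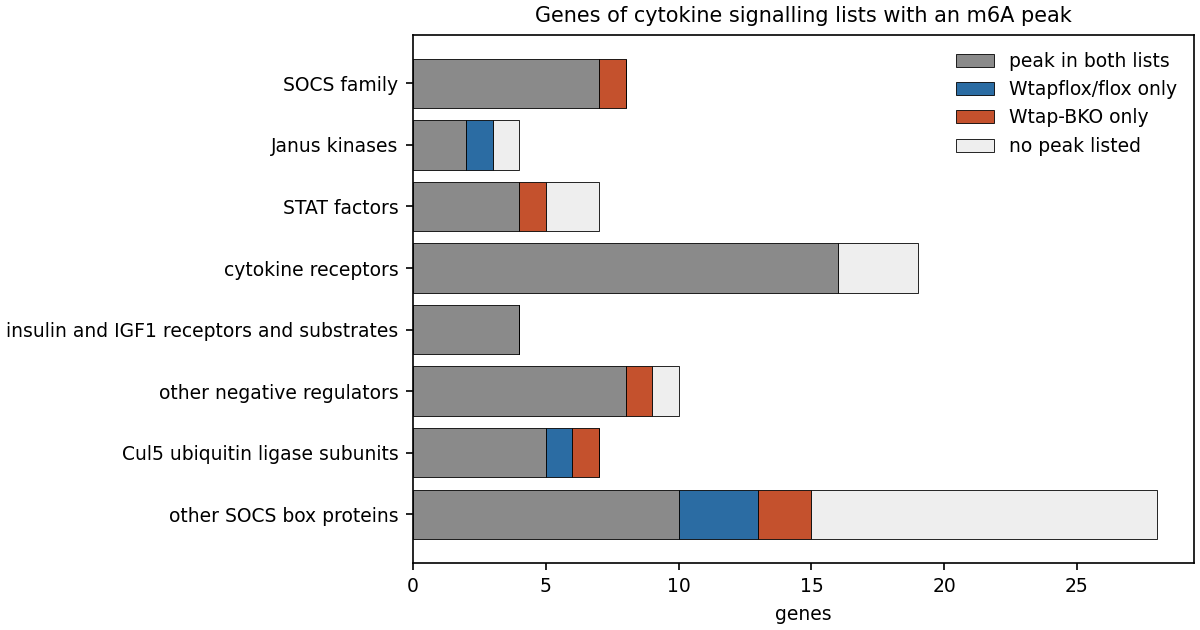
Number of genes (horizontal axis) with a peak in both lists (grey), in Wtapflox/flox only (blue), in Wtap-BKO only (red) or in neither (pale), for the SOCS family and 7 lists of related genes. The 16 cytokine receptors with a peak had one in both lists, and 13 of 28 other SOCS box genes had none.

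Peaks on marker genes of other cell types also differed between the lists, and these are given here because immune cells also express SOCS genes. Of 10 macrophage markers, 5 had a peak in both lists and 4 in Wtap-BKO only, with 9 Wtapflox/flox and 24 Wtap-BKO peaks, while *Adgre1* had none. Of 12 markers of T and B lymphocytes, 3 carried peaks in both lists and 4 in Wtap-BKO only, with 4 and 11 peaks, while *Cd3e*, *Cd3g*, *Cd79a* and *Ms4a1* were among those with none. Of 10 skeletal muscle markers, 2 had a peak in both lists and 7 in Wtap-BKO only, with 2 and 14 peaks. Of 12 brown adipocyte markers, *Ucp1* included, 11 had a peak in both lists, with 32 and 30 peaks. Over all genes with a peak in either list, 70.1% had one in both and 14.9% in Wtap-BKO only. The part of these cells in the *Socs1* and *Socs3* peaks of Wtap-BKO mice was not tested. The *Wtap* transcript carried 4 peaks in each list, each found in the other, and such peaks do not check the genotype.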

How the data were processed

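Total RNA of iBAT was pooled per genotype, and poly(A)+ RNA was fragmented, immunoprecipitated and sequenced with paired reads of 150 bp. The submitters' processing notes name fastp 0.19.11, BWA 0.7.12, HOMER 4.9.1 and GRCm38.p6, and the methods name MACS2 for peaks. The columns and spliced blocks of the lists are laid out as the R package exomePeak writes them, so the caller behind each FDR and fold enrichment is not settled here. The authors deposited 1 peak list per genotype, filtered at an FDR under 0.05. Each peak has a deposited p-value, 2 deposited scores (log10 FDR and log10 p), and a deposited fold enrichment, a ratio of IP over input whose scaling is not given in the sources used here. Read depth is unknown from the lists.

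Peaks were matched in Python 3.11.15 with scipy 1.17.1 and numpy 2.4.6 and drawn with matplotlib 3.10.9. Matching was tested on simulated data. Starts were raised by 1 to count from 1. Gene spans were read from RefSeq genes (GRCm38.p6), where all 8 symbols matched and every family peak lay inside its gene, as did 95.9% of all Wtapflox/flox and 95.2% of all Wtap-BKO peaks with a named gene. No genome sequence was used here, so no motif was searched. In both lists, 373 and 351 entries follow the mitochondrial peaks in a second series of chromosomes, among them 2 Wtapflox/flox and 1 Wtap-BKO entry of *Socs2*, and they were kept. The members, gene lists and rules were chosen with earlier results of these data known. All 8 members were named, and of the related lists the Janus kinases, STAT factors and a fixed set of receptors, substrates and ligase subunits. Some genes of these lists are not reported here. The SOCS box genes with a peak in 1 list, and the absent markers, were named after their values were seen. Alternatives were the overlap rule, the FDR limit, matching by position and ranking by fold enrichment.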

Additional observations from a re-analysis of the deposited data

How the results depend on the processing

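When at least 50% of a peak's bases had to be shared, 61.5% of the family's Wtapflox/flox and 68.8% of its Wtap-BKO peaks were found. The reported shares, which needed only 1 shared base, were 76.9% and 75.0%. When any peak of the same gene counted as found, 100% of the Wtapflox/flox and 93.8% of the Wtap-BKO peaks were found. Under 1e-05, 8 peaks of the family remained in each list, and 100% of them were found among all peaks of the other list. When the peak of the other list also had to be under 1e-05, 75.0% of the Wtapflox/flox and 87.5% of the Wtap-BKO peaks were found. For this rule, the 50% rule and the same-gene rule, the shares over the whole lists are not given here. These values therefore describe the family alone and do not set it apart from other genes. Under 1e-10, 7 Wtapflox/flox and 3 Wtap-BKO peaks remained. Genes with a peak in both lists numbered 4 under 1e-05 and 2 under 1e-10. Those in Wtapflox/flox only numbered 1 and 3, and those in Wtap-BKO only 1 and 0. The gene in Wtap-BKO only was *Socs1* at the authors' threshold and *Socs3* under 1e-05. Of the 79 related genes, 38 had a peak under 1e-05 in both lists, 7 in Wtapflox/flox only and 6 in Wtap-BKO only. Over all genes with a peak under 1e-05 in either list, 64.8% had one in both. The median rank of the family's peaks was 58.3% in Wtapflox/flox and 38.8% in Wtap-BKO mice by FDR, and 58.6% and 48.2% by fold enrichment. With the doubled *Socs2* entry counted once, an alternative chosen after seeing the data, 12 Wtapflox/flox peaks remained, of which 83.3% were found. No paired analysis was possible because each group has 1 sample, and no replicate could be left out. Depth is unknown, so weak peaks such as those of *Socs1* and *Socs2* could be missed in either list.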
